A study of Mus musculus with 9 samples.

Results

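Among the 39179 genes listed for laser-microdissected mouse bone capillaries, 10 belong to a group of imprinted genes that control growth before and after birth. They were chosen by name and are *Igf2*, *H19*, *Dlk1*, *Meg3*, *Peg3*, *Plagl1*, *Mest*, *Cdkn1c*, *Grb10* and *Ndn*. All 10 have a row in every library. The capillaries were cut together with the cells around them from the ossification front of the femur, the zone next to the growth plate where bone replaces cartilage. Juvenile mice were 4 weeks old and still growing (n = 5 libraries), and adult mice were 12 weeks old (n = 4). All of them carried Tg(TIE2GFP)287Sato/J, in which the Tie2 promoter drives green fluorescent protein in endothelial cells, and the labels give C57BL/6 as mouse origin. Many microdissected pieces were collected for each sample, so a library does not stand for a single vessel. The question was how the vessels and the tissue around them differ between growing and mature bone.

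An imprinted gene is expressed mainly from the chromosome inherited from 1 parent, because DNA methylation laid down in the germ line of 1 parent sets the parental copies apart. *Igf2*, *Dlk1*, *Peg3*, *Plagl1*, *Mest* and *Ndn* are read from the paternal chromosome, and *H19*, *Meg3* and *Cdkn1c* from the maternal one. *Grb10* is maternal in most tissues. Many of these genes are known to be switched down together in several organs as body growth slows after birth. *Plagl1* encodes a zinc finger transcription factor that acts on other genes of this group, among them *Igf2*, *H19* and *Cdkn1c*. The libraries do not separate the parental copies, so the values are summed over both.

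The member with the clearest age difference, *Plagl1*, is shown first with *Peg3*, because the ages did not overlap for either gene and their mean levels differed in opposite directions. The Plagl1 factor is known to bind GGGGCCCC and the direct repeat GGGGNNNNNNGGGG. Both motifs were searched on both strands in 15 RefSeq promoter windows (GRCm38.p6, 250 bases before to 50 after a start) that matched 8 of the 10 members. *H19* and *Cdkn1c* had no window. Capitals mark motif matches in the 250 bases upstream of *Peg3* on the minus strand (chr7:6730420-6730669) and of *Plagl1* on the plus strand (chr10:13090582-13090831).
Peg3: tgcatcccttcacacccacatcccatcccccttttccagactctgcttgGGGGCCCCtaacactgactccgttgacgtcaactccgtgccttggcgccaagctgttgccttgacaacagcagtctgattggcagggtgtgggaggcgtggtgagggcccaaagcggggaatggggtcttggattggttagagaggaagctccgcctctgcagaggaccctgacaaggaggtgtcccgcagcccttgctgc
Plagl1: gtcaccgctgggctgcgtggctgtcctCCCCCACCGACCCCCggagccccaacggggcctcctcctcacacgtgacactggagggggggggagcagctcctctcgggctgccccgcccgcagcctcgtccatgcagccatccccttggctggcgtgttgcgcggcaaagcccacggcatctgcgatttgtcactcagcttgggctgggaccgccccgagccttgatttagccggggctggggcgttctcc
GGGGCCCC was found in 1 member window, that of *Peg3*. It occurs in 1.08% of the 32851 promoter windows of this length. The direct repeat was found in 5 of the 15 windows, from 4 members (*Plagl1*, *Igf2*, *Dlk1* and *Meg3*), against 9.66% of all windows. Some members have several windows, which can overlap, and enrichment was not tested. In *Dlk1* and *Meg3* the matches lie in runs of G. In *Plagl1*, 2 overlapping matches on the opposite strand form the capitals. These are matches of letters, not shown binding sites.

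Several members also carry microRNAs, which are processed from the same primary transcripts. RefSeq places 9 mature microRNAs inside 4 members, with 9 different seeds, the bases 2 to 8 that pair with a target. One for each host is shown with the seed in capitals, because the host RNA is what was counted here. The libraries were made from poly-A RNA and do not measure the mature forms.
miR-675-5p (exon of *H19*, chr7:142577112-142577133, minus strand): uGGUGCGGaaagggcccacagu
miR-483-5p (intron of *Igf2*, chr7:142654968-142654989, minus strand): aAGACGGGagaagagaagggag
miR-770-5p (exon of *Meg3*, chr12:109563710-109563731, plus strand): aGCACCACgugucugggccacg
miR-335-5p (intron of *Mest*, chr6:30741314-30741336, plus strand): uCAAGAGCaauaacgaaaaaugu

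Library totals lay between 4856833 and 8077362 counts. A library with 0 counts of a gene allows a level of up to 0.371 to 0.618 CPM (counts scaled to a common library total), which is 3 counts of its total and covers counting error only. Levels below were also scaled between libraries by TMM, with SD over libraries. Y-linked *Ddx3y* had 524 and 439 counts in juvenile replicates 4 and 5 and at most 1 count in the other 7 libraries, so sex and age are partly joined. Summed over 12 endothelial markers, the level was 770 to 1227 CPM in juvenile and 1077 to 1317 CPM in adult libraries, whereas 12 osteoblast markers summed to 172261 to 214056 CPM and 62874 to 94004 CPM. Most of the osteoblast sum came from *Col1a1* (63485 to 82585 CPM in juvenile libraries) and *Col1a2* (69724 to 92551 CPM). Of its 12 genes, 6 were higher in the juvenile in edgeR (adjusted p under 0.05). *Bglap* was higher in the adult (edgeR adjusted p = 0.0151), and 5 did not pass. Both lists were thus detected in every library, and fewer cells of a type cannot be told apart from less RNA per cell.

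Of the 9 members that passed the filter on low counts, 1 differed between the ages and it was higher in the adult (edgeR quasi-likelihood test, adjusted p under 0.05). None was higher in the juvenile, and 8 did not pass. Unadjusted p was under 0.05 for 5 members, 2 higher in the juvenile and 3 in the adult, and DESeq2 called 2. The share of all tested genes with unadjusted p under 0.05 was not taken. Such unadjusted counts, here and for the lists below, therefore have no background to be set against. Over all 13418 genes tested, edgeR called 3.88% of genes, split into 1.99% higher in juvenile mice and 1.89% higher in adult mice, and DESeq2 called 9.47% of its tested genes. The ages did not overlap for 3 of the 9 members, against 9.15% of all genes tested. The median log2 fold change of juvenile over adult was 0.19 over the 9 members and -0.01 over all tested genes. Summed over the 10 members, the level was 287 to 367 CPM in juvenile and 274 to 393 CPM in adult libraries, so the ages overlapped.

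**Figure D1:**
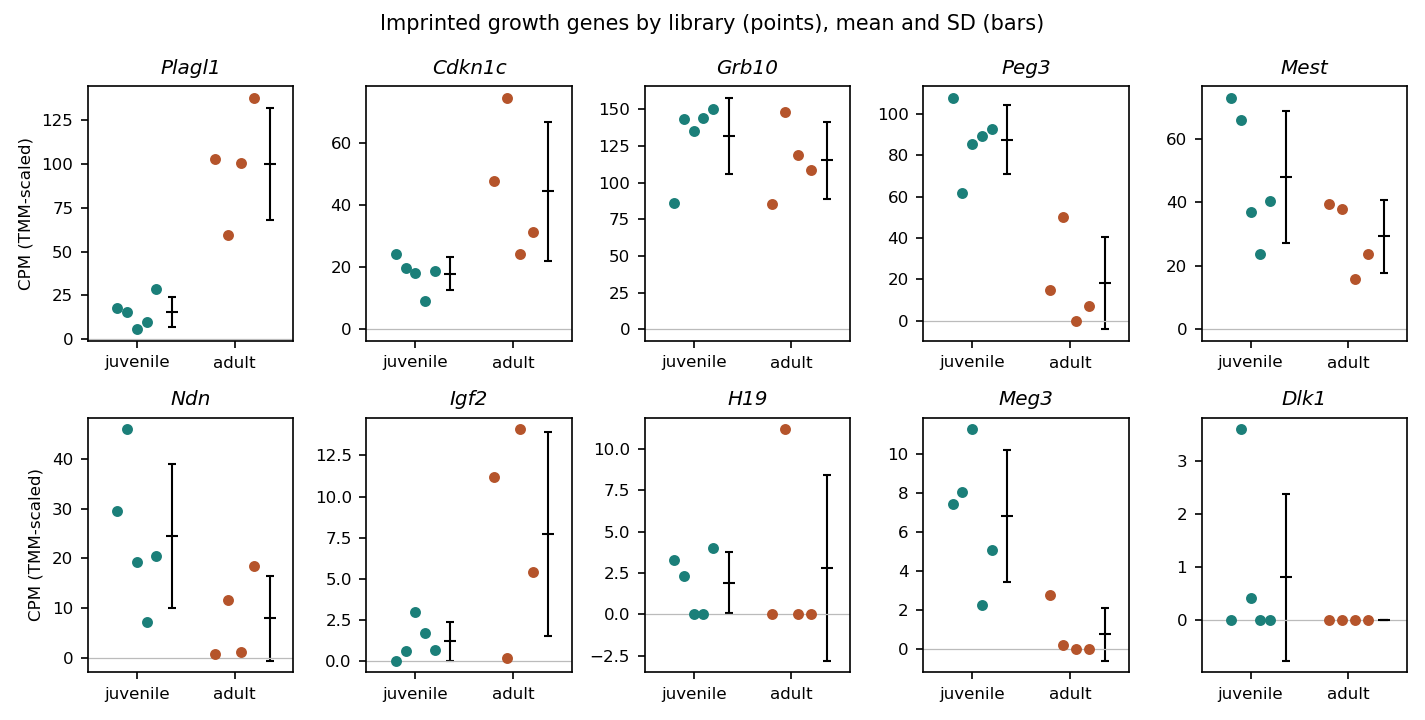
CPM (TMM-scaled, vertical axis) of the 10 members in each juvenile (n = 5) and adult (n = 4) library, with the mean and SD as bars. *Plagl1* and *Cdkn1c* lie higher in all adult libraries and *Peg3* lies higher in all juvenile libraries, whereas the other members overlap.

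*Plagl1*, a transcription factor, was the only member that passed in edgeR. It lies on chr10:13060504-13131694 (GRCm38, plus strand). Its levels were 18.1, 15.8, 5.75, 9.95 and 28.6 CPM in juvenile replicates 1 to 5, and 102, 59.6, 100 and 138 CPM in adult replicates 1 to 4. The lowest adult library was above the highest juvenile one. The mean was 15.7 ± 8.73 CPM (SD, n = 5) in the juvenile and 99.95 ± 31.9 CPM (SD, n = 4) in the adult, a 6.38-fold higher adult level (log2 fold change -2.67, SE 0.41, edgeR adjusted p = 0.00406). All 19 alternative settings kept this direction and call, with log2 fold changes of -3.94 to -2.47 and adjusted p between 3.27e-08 and 0.0359. Without the 2 libraries with Y-linked counts, the log2 fold change was -2.91 (edgeR adjusted p = 0.0359). The genes flanking *Plagl1* did not pass the test. *Sf3b5*, 51.3 kb away, encodes a splicing factor subunit and measured 98.7 ± 11.8 CPM in juvenile and 135 ± 24.7 CPM in adult libraries (edgeR adjusted p = 0.219). *Ltv1*, 46.4 kb to the other side, measured 19.7 ± 3.73 and 14.7 ± 17.1 CPM (edgeR adjusted p = 0.818).

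Some lists of blood cell markers also differed between the ages. The macrophage list summed to 563 to 861 CPM in juvenile and 1113 to 1860 CPM in adult libraries, with 2 of 10 tested genes called. These were *Csf1r* and *Vcam1*, which is also in the list for adipogenic stroma. *Adgre1*, *Mrc1* and *Cd163* of that macrophage list did not pass, and *Mertk* went the other way (log2 fold change 1.07, edgeR adjusted p = 0.183). Neutrophil markers summed to 18.1 to 72.1 CPM and 104 to 4439 CPM, with 8 of 9 tested genes higher in the adult. Erythroid markers summed to 419 to 2555 CPM and 4716 to 37038 CPM, with all 8 tested genes higher in the adult. In adult replicate 2, *Plagl1* was 59.6 CPM, the lowest adult value. This library had the lowest macrophage, neutrophil and erythroid sums of the adult group, and the 3 sums were still above those of every juvenile library. Its B cell sum was below that of every juvenile library. Without that library, the log2 fold change of *Plagl1* was -2.87 (edgeR adjusted p = 0.00277). Outside blood cells, the adipogenic stroma list also summed higher in every adult library (juvenile 320 to 513 CPM, adult 520 to 1357 CPM). Its lowest adult sum was likewise that of adult replicate 2. Of its 9 tested genes, 2 were called higher in the adult and 1 in the juvenile. The part of any of these cells in the *Plagl1* level was not tested. By mean absolute difference of centred log2 CPM over the 9 libraries, the nearest patterns among 11596 genes belonged to *Il10ra* (0.351), a chain of the interleukin-10 receptor found on blood cells, *Syngr1* (0.430) and *Arhgap45* (0.435). The search for *Plagl1* was added after its values were seen.

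**Figure D2:**
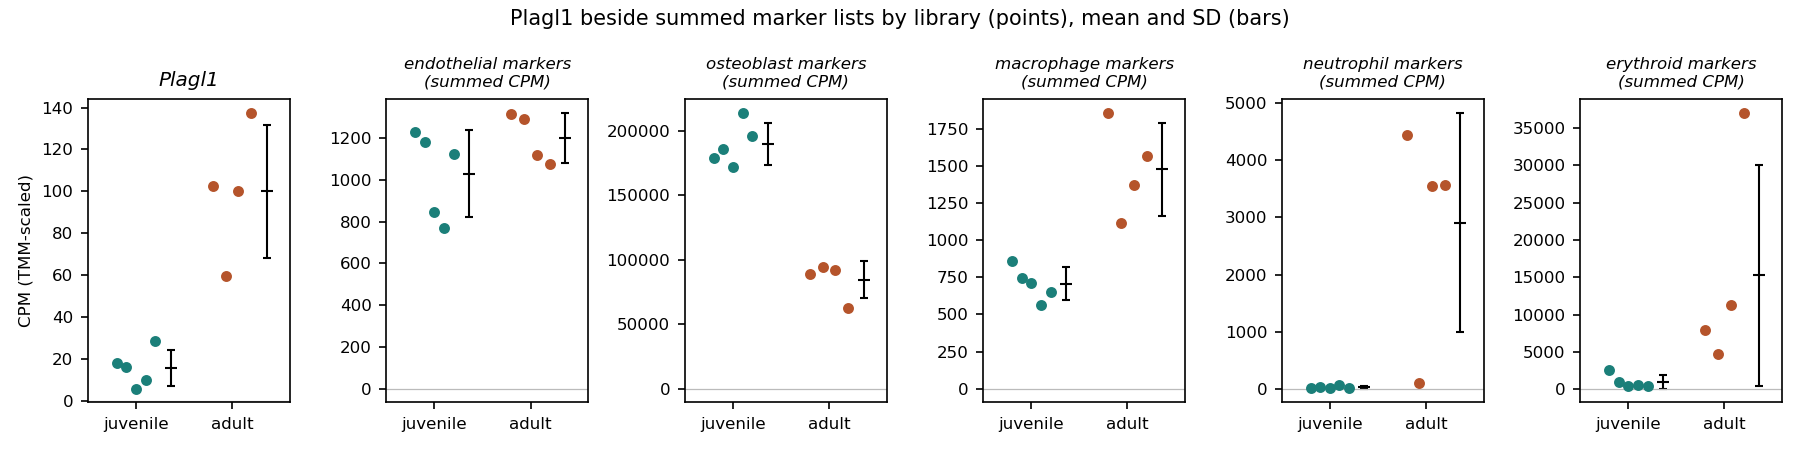
*Plagl1* (left, CPM) and the summed CPM of 5 lists of cell type markers in each juvenile (n = 5) and adult (n = 4) library, with mean and SD as bars. *Plagl1*, macrophage, neutrophil and erythroid sums are higher in every adult library, the osteoblast sum is lower in every adult library and the endothelial sums overlap.

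*Cdkn1c* encodes p57, an inhibitor of cyclin-dependent kinases that halts the cell cycle, and it lies on chr7:143458339-143461050. It measured 24.1, 19.7, 18.1, 9.20 and 18.7 CPM in the juvenile and 47.9, 74.7, 24.4 and 31.2 CPM in the adult. Each adult library was above each juvenile one. The means were 17.96 ± 5.44 CPM (n = 5) and 44.5 ± 22.4 CPM (n = 4). The log2 fold change of -1.31 (SE 0.40) did not pass in edgeR (adjusted p = 0.0913) and passed in DESeq2 (adjusted p = 0.0186). Its exons share 625 bases with the opposite-strand gene *Gm44732*, which has no row in these counts. Any reads from that gene in these bases may be included in the *Cdkn1c* count.

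*Grb10*, an adaptor protein that dampens insulin and IGF receptor signalling, was the member with the highest level per kb of exon in the juvenile, at 14.5 CPM per kb. Its CPM was 85.9, 143, 135, 144 and 150 in the juvenile and 85.4, 148, 119 and 108 in the adult. The ages overlapped across their whole range (131.8 ± 26.2 and 115 ± 26.0 CPM, log2 fold change 0.19, SE 0.22, edgeR adjusted p = 0.740). In the adult, the highest level per kb was that of *Cdkn1c* (21.8), followed by *Plagl1* (12.8) and *Grb10* (12.7). *Plagl1* had 2.002 CPM per kb in the juvenile, below *Mest* (12.2), *Cdkn1c* (8.81), *Ndn* (6.64) and *Peg3* (6.57). These per kb levels divide by all annotated exon bases, whichever transcripts are used.

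*Peg3* encodes a large zinc finger protein and lies at chr7:6703892-6730431 on the minus strand. It measured 108, 61.9, 85.6, 89.5 and 92.8 CPM in the juvenile and 15.03, 50.1, 0 and 6.89 CPM in the adult. Every juvenile library was above every adult one, and 1 adult library had no count. The mean was 87.6 ± 16.7 CPM (n = 5) and 18.005 ± 22.3 CPM (n = 4), with a log2 fold change of 2.29 (SE 0.87) that did not pass (edgeR adjusted p = 0.177). Adult replicate 2 decided the call, since without it the log2 fold change was 3.55 (edgeR adjusted p = 0.0368). That library had the highest adult *Peg3* level, so this p cannot serve as a test of age. The nearest tested neighbours of *Peg3*, *Zfp28* and *Zfp954*, did not pass either.

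*Mest*, an alpha/beta hydrolase fold protein, measured 72.9, 66.0, 36.8, 23.7 and 40.5 CPM in the juvenile and 39.5, 37.7, 15.8 and 23.7 CPM in the adult. The ages overlapped (log2 fold change 0.72, SE 0.39, edgeR adjusted p = 0.381). The opposite-strand gene *Copg2*, which has its own row, shares 912 bases with *Mest*, 23.1% of the *Mest* exon bases. How reads in shared bases were assigned is not given. The *Mest* count may therefore include *Copg2* reads or lack *Mest* reads from these bases. *Ndn*, which encodes the growth suppressor necdin, measured 29.5, 46.1, 19.4, 7.13 and 20.6 CPM in the juvenile and 0.69, 11.5, 1.11 and 18.4 CPM in the adult. Adult replicates 2 and 4 lay within the juvenile range (log2 fold change 1.63, SE 0.87, edgeR adjusted p = 0.369), and without adult replicate 4 the log2 fold change was 2.47 (adjusted p = 0.195). *Peg12*, its neighbour in the same imprinted region, measured 6.39 ± 2.63 and 1.03 ± 1.67 CPM (edgeR adjusted p = 0.289).

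**Figure D3:**
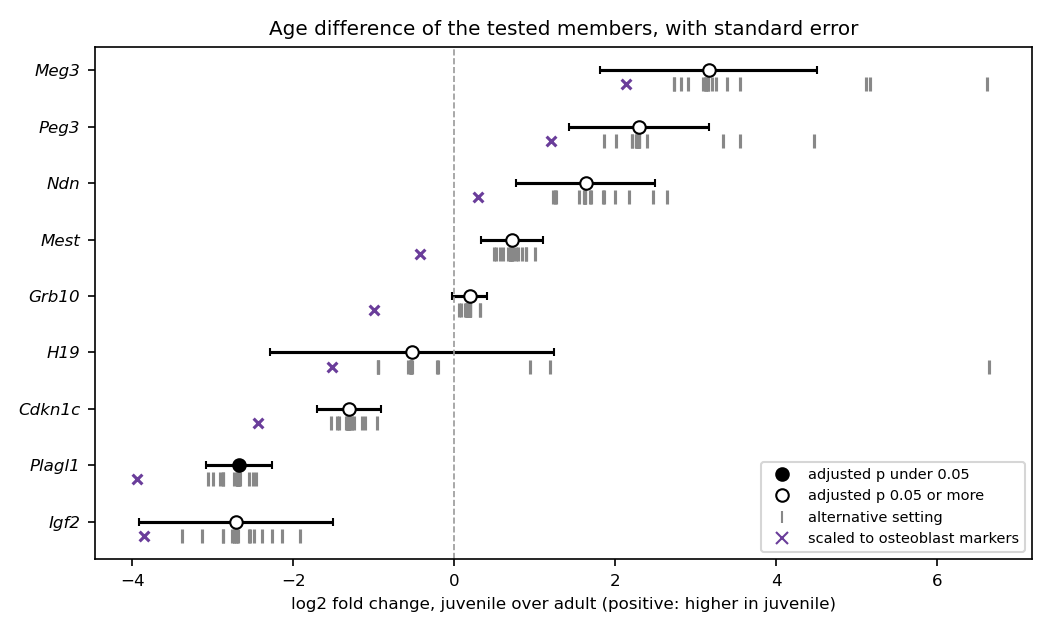
Log2 fold change of juvenile over adult for the 9 tested members (horizontal axis), with the edgeR standard error as bars, tick marks for each alternative setting and crosses for scaling to osteoblast markers. *Plagl1* alone is filled (adjusted p 0.00406), and *Mest* and *Grb10* change sign under the osteoblast scaling.

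The remaining members form 2 pairs of neighbours and were counted at low levels. *Igf2*, the fetal growth factor, had 0, 4, 14, 9 and 3 counts in the juvenile and 97, 1, 114 and 43 in the adult. Its mean was 1.18 ± 1.18 CPM and 7.72 ± 6.20 CPM (log2 fold change -2.71, SE 1.20, edgeR adjusted p = 0.263). Adult replicate 2 lay within the juvenile range and the other 3 adult libraries lay above it. The same-strand gene *Gm49394* shares 3596 bases with *Igf2*, 62.8% of the *Igf2* exon bases. It has no row in these counts, so any reads from it in the shared bases may be included in the *Igf2* count. *H19*, the noncoding RNA 72.6 kb away, had counts of 18, 16, 0, 0 and 19 in the juvenile and 0, 67, 0 and 0 in the adult. Thus, the only adult library with *H19* was the one with the least *Igf2*. The log2 ratio of *H19* to *Igf2* counts, with 0.5 added to each, was 0.09 ± 4.43 (n = 5) in the juvenile and -4.10 ± 6.42 (n = 4) in the adult (two-sided exact permutation test, p = 0.294). Without adult replicate 2, the difference rose from 4.19 to 7.39 on the log2 scale (exact permutation p = 0.0357). That library was the outlier of this same ratio, so this p cannot serve as a test of age. On leaving out any other library in turn, the exact permutation p was 0.257 to 0.536. The nearest tested gene on the other side of *Igf2*, 338 kb away, was *Tspan32*, a tetraspanin of blood cells, with 1.81 ± 1.30 CPM in juvenile and 34.3 ± 17.9 CPM in adult libraries (log2 fold change -4.23, SE 0.78, edgeR adjusted p = 0.0117). It was the only one of 16 neighbouring genes outside the group to pass. The genes nearest to *Igf2* in pattern were *Usp30* (0.592), *Cx3cr1* (0.652), a chemokine receptor of monocytes and macrophages, and *Prss35* (0.654).

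*Meg3*, a noncoding RNA that is maternally expressed, had 41, 56, 53, 12 and 24 counts in the juvenile and 24, 1, 0 and 0 in the adult. It measured 7.43, 8.07, 11.3, 2.25 and 5.09 CPM against 2.77, 0.17, 0 and 0 CPM, and adult replicate 1 fell within the juvenile range. The opposite-strand gene *Gm26906* shares 1228 of its exon bases. The log2 fold change of 3.16 (SE 1.34) did not pass (edgeR adjusted p = 0.236). Without adult replicate 1, the outlier of its group, it was 6.62 (edgeR adjusted p = 0.0234). On leaving out any other library in turn it did not pass (edgeR adjusted p 0.288 to 0.366). *Dlk1*, a Notch-like membrane protein 77.7 kb away that holds back adipocyte formation, had 25 counts in juvenile replicate 2, 2 in juvenile replicate 3 and none in the other 7 libraries. It did not pass the filter and was not tested. The log2 ratio of *Meg3* to *Dlk1* was 4.44 ± 2.0003 (n = 5) and 1.80 ± 2.65 (n = 4) (two-sided exact permutation p = 0.135), and both genes were at or under 3 counts in 3 libraries.

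Other imprinted genes were tested in the same fit. Of 49 further imprinted genes listed, 44 had a row, 10 of these had no count in any library and 24 were tested. Over all genes tested, 1.99% were called higher in the juvenile and 1.89% in the adult. Among the 24, 2 were higher in the juvenile, none in the adult and 22 did not pass, with a median log2 fold change of 0.11. Both lie in the imprinted cluster of proximal chromosome 6. *Asb4*, an ankyrin repeat protein with a SOCS box, measured 12.5, 27.1, 10.9, 18.4 and 18.02 CPM in the juvenile and was listed with 0 counts in all 4 adult libraries. It was at least 43.6-fold higher in the juvenile, taken against the level that 3 counts per adult library allow (edgeR adjusted p = 0.00168). *Peg10*, a retrotransposon-derived gene needed for the placenta, measured 9.92 ± 5.90 and 0.577 ± 0.462 CPM (log2 fold change 4.05, SE 1.04, edgeR adjusted p = 0.0477). Its ages did not overlap, but leaving out any one of the 9 libraries ended the call, with adjusted p between 0.0568 and 0.117. *Sgce*, which shares its promoter region with *Peg10* and encodes epsilon-sarcoglycan, measured 42.7 ± 12.1 and 23.0 ± 10.7 CPM and did not pass (edgeR adjusted p = 0.233). *Slc38a4*, an imprinted amino acid transporter, measured 19.6 ± 12.0 and 1.26 ± 2.28 CPM (edgeR adjusted p = 0.110), and DESeq2 called it (adjusted p = 0.00796). Without adult replicate 2 it passed in edgeR (adjusted p = 0.00832). That library held 28 of its 31 adult counts, so the edgeR p without it cannot serve as a test of age. *Gnas*, which encodes the stimulatory G protein subunit, did not pass at 1103 ± 137 and 820 ± 109 CPM (edgeR adjusted p = 0.151).

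**Figure D4:**
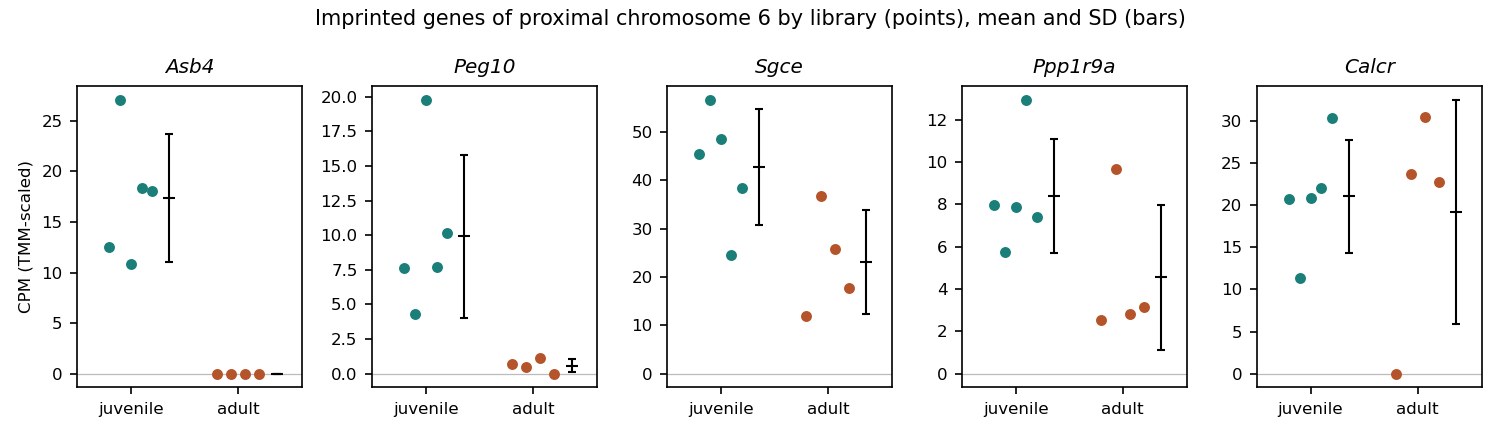
CPM of 5 imprinted genes of proximal chromosome 6 in each juvenile (n = 5) and adult (n = 4) library, with mean and SD as bars. *Asb4* is at 0 in every adult library and *Peg10* is lower in every adult library, whereas *Sgce*, *Ppp1r9a* and *Calcr* overlap.

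The genes through which *Igf2*, *Grb10* and *Cdkn1c* act were taken as lists. Of 15 tested IGF ligands, receptors and binding proteins, 1 rose in the juvenile and 1 in the adult. *Igfbp2*, a carrier of IGF in serum and matrix, measured 4.24 ± 1.92 CPM in the juvenile and had 0 counts in every adult library, at least 10.6-fold higher (edgeR adjusted p = 0.0134). That call was lost with voom (adjusted p = 0.0644) and without the 2 libraries with Y-linked counts (adjusted p = 0.111). *Igfbp4*, which keeps IGF from its receptor, measured 298 ± 44.1 CPM and 541 ± 144 CPM (log2 fold change -0.86, SE 0.19, edgeR adjusted p = 0.0267). That call was lost without juvenile replicate 1, 4 or 5 or adult replicate 1, with adjusted p up to 0.0754. *Igfbp7*, a binding protein of the vessel wall matrix, measured 339.6 ± 155 CPM and 692 ± 99.1 CPM and did not pass (edgeR adjusted p = 0.0554). It passed without juvenile replicate 2 (edgeR adjusted p = 0.00813). That library had the highest juvenile *Igfbp7* level, so this p cannot serve as a test of age. *Igf2r*, the imprinted receptor that clears *Igf2*, was at 62.7 ± 12.7 and 62.9 ± 20.3 CPM (log2 fold change -0.01, SE 0.27).

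Of 13 tested cell cycle partners of *Cdkn1c*, 2 were higher in the juvenile and 1 in the adult. *Ccnd2*, a D-type cyclin, measured 218 ± 22.04 and 80.6 ± 28.2 CPM (log2 fold change 1.44, SE 0.23, edgeR adjusted p = 0.00569). *Cdkn1a*, which encodes the related inhibitor p21, measured 380 ± 92.1 and 209 ± 41.4 CPM (log2 fold change 0.86, SE 0.21, edgeR adjusted p = 0.0398), the opposite direction to the level of *Cdkn1c*. *Mki67*, a marker of dividing cells, measured 29.3 ± 8.51 and 136 ± 103 CPM (log2 fold change -2.21, SE 0.52, edgeR adjusted p = 0.0356). The *Cdkn1a* and *Mki67* calls were lost on leaving out 8 and 7 of the 9 libraries in turn. Among 11 tested growth-associated genes that are not imprinted, *Ptn*, the heparin-binding growth factor pleiotrophin, was the only one to pass, at 20.3 ± 8.84 and 0.251 ± 0.501 CPM (log2 fold change 6.40, SE 1.19, edgeR adjusted p = 0.0121). Its adult mean rested on 6 counts in adult replicate 2, without which all adult libraries were at 0 and the call stood (edgeR adjusted p = 0.00130), and it was lost with voom (adjusted p = 0.0543).

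Directions are relative to the whole library. When libraries were instead scaled to the summed osteoblast markers, the median log2 fold change of all genes moved to -1.21, and 1.18% of the calls, in place of 51.3%, were higher in the juvenile. That sum rests mostly on *Col1a1* and *Col1a2*, both higher in the juvenile in the main fit. Under that scaling 6598 of the 13418 tested genes were called higher in the adult. Among them were 4 of the 9 tested members, *Igf2*, *Plagl1*, *Cdkn1c* and *Grb10*. *Mest* and *Grb10* changed sign (log2 fold change -0.43 and -0.997), and *Peg10* and *Asb4* stayed higher in the juvenile.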

How the data were processed

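RNA of 9 microdissected capillary samples (5 juvenile, 4 adult) was sequenced after poly-A dependent SMART-Seq amplification. The authors mapped reads to mm10 with TopHat2 and Bowtie2, and the deposited values are whole-number counts per gene and library (featureCounts per the labels). Its strand setting, annotation release and handling of read pairs are not given in the sources used here. The study describes the samples of an age as taken from different mice, which the labels do not state library by library. No 2 of the 36 library pairs agreed within sampling noise.

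Ages were compared with edgeR 4.0.16 (R 4.3.3; filterByExpr, TMM, quasi-likelihood F test, no covariate) over 13418 genes with Benjamini-Hochberg adjustment, called at 0.05. Alternatives used DESeq2 1.42.0, limma 3.58.1 voom, other scalings and filters, a replicate block and subsets of libraries. The fits were tested on simulated data. Ratios were compared by exact permutation over all 126 splits, where the smallest p is 0.00794. Symbols and positions come from the GENCODE annotation of GRCm38, which holds 96.2% of the identifiers. Sequences come from RefSeq. Figures were drawn with matplotlib 3.10.9.

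Genes named besides the members are list genes that passed or had the highest levels, the nearest tested neighbours, and for low members the 3 nearest patterns among genes of at least 5 CPM. *Slc38a4*, *Igf2r*, *Ppp1r9a* and *Calcr* were added after their values were seen. The members and lists were chosen with earlier results of these data known.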

Additional observations from a re-analysis of the deposited data

Results flagged for a closer look

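In 37 sets of 4 or 5 libraries examined for 1 library far from its group, 6 such values were found. For continuous values chance gives a share of about 0.05 of such sets, which cannot be set against this number, because for *H19* and *Ptn* the rest of the group was at 0 and the ratio below holds the *H19* value again. In the adult, *H19* was 11.2 CPM in replicate 2 and 0 in the other 3 libraries, and the *H19* to *Igf2* log2 ratio of the same library was 5.49 against -7.84 to -6.44. *Ptn* was 1.002 CPM in that library and 0 in the other adult ones. *Meg3* was 2.77 CPM in adult replicate 1 against 0 to 0.167 CPM in the rest of its group. In the juvenile, *Dlk1* was 3.60 CPM in replicate 2 against 0 to 0.426 CPM, and *Grb10* was 85.9 CPM in replicate 1 against 135 to 150 CPM.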

How the results depend on the processing

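*Plagl1* kept its direction and call under all 19 alternatives. The number of genes called, 520, was 1490 with DESeq2, 89 with the replicate block, 73 without the 2 libraries with Y-linked counts, and 262 to 651 on leaving out 1 library. With osteoblast scaling it was 6677 of 13418 tested. Members called, 1, were 2 with DESeq2, 4 with osteoblast scaling and 1 to 2 on leaving out 1 library. Other imprinted genes called, 2, were 1 with DESeq2's size factors, voom, no filter or the 7 libraries, 4 with DESeq2, 0 with at least 10 counts in every library or with the replicate block, 14 with osteoblast scaling, and 1 to 2 on leaving out 1 library. The replicate numbers are not pairs in the labels, and deviations of same-numbered libraries correlated at -0.032 to 0.030. With the block the calls of *Asb4*, *Igfbp2*, *Igfbp4*, *Ptn*, *Ccnd2*, *Cdkn1a*, *Mki67*, *Peg10* and *Tspan32* were lost, and that of *Plagl1* was not. Without the 2 libraries with Y-linked counts, *Igfbp2*, *Igfbp4*, *Ptn*, *Ccnd2*, *Cdkn1a*, *Mki67* and *Peg10* lost their calls. With voom, *Igfbp2*, *Ptn*, *Cdkn1a*, *Mki67* and *Peg10* lost theirs. The log2 ratio difference of *H19* to *Igf2* ranged from 2.91 to 7.39 on leaving out 1 library. *H19* turned from -0.52 to 1.19 with voom, 0.94 with the block and 6.65 without adult replicate 2 (range on leaving out 1 library -0.95 to 6.65). With osteoblast scaling, *Mest* was at -0.43, *Grb10* at -0.997, *Sgce* at -0.24, *Gnas* at -0.79 and *Cdkn1a* at -0.28 on the log2 scale. *Igf2r* turned to 0.11, 0.01 and 0.18 without juvenile replicate 2, juvenile replicate 3 and adult replicate 2 (range -0.20 to 0.18). The cause was not tested. With at least 10 counts in every library, no value could be had for *Igf2*, *H19*, *Meg3*, *Peg3* and *Ndn*, and *H19* had values under 15 of the 19 alternatives. *Dlk1*, with 27 counts in all, was below the depth needed for a test.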

Other observations

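The genes that keep imprints and those of the Notch pathway, to which *Dlk1* is related, were also examined. None of 13 tested imprint maintenance genes passed in edgeR, 3 had an unadjusted p under 0.05, all with a higher adult level, and DESeq2 called 1. *Dnmt3a*, a DNA methyltransferase, measured 108 ± 28.2 CPM in the juvenile and 109 ± 33.8 CPM in the adult. *Trim28*, a corepressor that protects imprints, measured 162 ± 12.5 and 125 ± 53.3 CPM. None of 11 tested Notch receptors and targets passed in edgeR, 2 had an unadjusted p under 0.05, and DESeq2 called 1. *Notch2* measured 77.1 ± 14.8 and 50.1 ± 19.1 CPM, and *Hes1*, a Notch target, measured 85.2 ± 16.9 and 106 ± 24.8 CPM.

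For the other low members, the nearest patterns were those of *Dnajb5* (0.696), *Glmn* (0.760) and *Urb1* (0.852) for *H19*, and of *Zc3h12c* (0.626), *E430018J23Rik* (0.663) and *Myo1f* (0.763) for *Meg3*, as mean absolute differences of centred log2 CPM over 9 libraries.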
